A study of Mus musculus with 4 samples.

Results

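Interleukin 1 (IL-1) is the prototype inflammatory cytokine of activated macrophages. Its genes Il1a and Il1b lie side by side on mouse chromosome 2, and their antagonist gene Il1rn lies elsewhere on the same chromosome. The H3K4me3 peaks described here are those that overlapped either of 2 windows of the mm9 mouse genome, chr2:129120000-129205000 for Il1a and Il1b and chr2:24185000-24210000 for Il1rn. The windows held 6 of the 18786 regions formed by joining overlapping peaks of all 4 lists of the series. Of these 6 regions, LPS-treated Wbp7-/- cells had a peak at 5 and LPS-treated Wbp7+/- cells at 6, and untreated cells had a peak at 2 in either genotype.

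Trimethylation of histone H3 on lysine 4 (H3K4me3) marks active promoters, and chromatin immunoprecipitation followed by sequencing (ChIP-seq) maps it. It was measured in bone marrow-derived macrophages on day 7 of differentiation, from mice of mixed background, 94% C57BL/6 and 6% 129/Ola. The cells were Wbp7-/- or Wbp7+/-, and by their genotype label the Wbp7+/- cells also lacked 1 functional copy. Wbp7, called MLL2 in the sample titles, MLL4 in the source names and Kmt2b in current nomenclature, encodes a histone H3 lysine 4 methyltransferase. Macrophages of each genotype were taken 4 h after LPS, the lipopolysaccharide of bacterial outer membranes, given at 10 ug/ml, or without treatment. Each of the 4 groups held 1 library, so no difference below has a replicate check or a p-value. The labels do not say how the deletion was made or how many mice gave a library.

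The lists held 15086 peaks for LPS-treated Wbp7-/- cells, 17313 for LPS-treated Wbp7+/- cells, 14599 for untreated Wbp7-/- cells and 17316 for untreated Wbp7+/- cells. The sources used here give no read numbers, so the depth behind a missing peak is unknown, and a missing peak means a signal below the caller's threshold. Each peak has the authors' MACS score, by convention derived from its p-value, from 50 upward with a pile-up at 3100, called the ceiling here. From 54.8 to 62.0% of the peaks of a list stood at or above it. Unknown depth also limits scores, which are not on a common scale between lists. With every list cut to its 14599 highest-scoring peaks, the lowest score kept after LPS was 60.12 in Wbp7-/- and 128.25 in Wbp7+/- cells. Untreated, it was 50.0 in Wbp7-/- and 136.65 in Wbp7+/- cells. The label of the LPS-treated Wbp7+/- library gives 4 h, whereas the first line of its file names 24 h. Every LPS value of Wbp7+/- cells, and every genotype difference after LPS, carries this uncertainty. The identity of the cells was not checked against marker genes, since no mm9 annotation was used.

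IL-1 alpha and IL-1 beta are made as precursors and act on the same receptor, IL1R1, which signals through MyD88 to NF-kB. The IL-1 beta precursor has to be cleaved, typically by caspase-1 in an inflammasome, before it is active, and in macrophages its transcription depends on a first signal such as LPS through TLR4. Il1rn encodes the IL-1 receptor antagonist, which binds IL1R1 without signalling. In human, the upstream start of this gene gives an intracellular form of the antagonist and the downstream start the secreted form. Other genes of the pathway, such as the receptors and caspase-1, were not analysed here.

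The promoters are shown because the 3 genes have 4 starts or groups of starts, and the peaks tied to them by order differed. Whether the sequences bear on the peaks was not tested. The lines give the 250 bases before the start, 5′ to 3′ on the gene's strand, from RefSeq on GRCm38.p6, a later build than that of the peaks. No position was converted between the builds. Capitals mark TATAAA, the core of the TATA box, and TGANTCA, the AP-1 motif, searched on both strands, with no overlap between the matches. Il1rn has 3 listed starts on the plus strand, of which the 2 downstream ones overlap in sequence, so the first of these is printed. The stretches are chr2:129309973-129310222 and chr2:129371140-129371389, both on the minus strand, and chr2:24336610-24336859 and chr2:24345041-24345290, both on the plus strand.
Il1a: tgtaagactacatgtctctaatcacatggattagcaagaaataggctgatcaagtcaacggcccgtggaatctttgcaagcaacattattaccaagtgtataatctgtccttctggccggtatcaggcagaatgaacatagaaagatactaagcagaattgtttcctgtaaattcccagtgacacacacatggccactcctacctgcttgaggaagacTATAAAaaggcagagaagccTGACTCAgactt
Il1b: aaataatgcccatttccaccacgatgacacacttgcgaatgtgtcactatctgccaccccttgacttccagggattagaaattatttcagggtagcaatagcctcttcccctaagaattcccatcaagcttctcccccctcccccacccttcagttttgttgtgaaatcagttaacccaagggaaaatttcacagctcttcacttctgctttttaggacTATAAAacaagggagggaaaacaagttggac
Il1rn upstream start: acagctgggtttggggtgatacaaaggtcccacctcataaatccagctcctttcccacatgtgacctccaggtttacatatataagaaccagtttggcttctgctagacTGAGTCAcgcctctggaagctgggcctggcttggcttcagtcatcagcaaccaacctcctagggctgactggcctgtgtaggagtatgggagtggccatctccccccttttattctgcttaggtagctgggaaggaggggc
Il1rn downstream start: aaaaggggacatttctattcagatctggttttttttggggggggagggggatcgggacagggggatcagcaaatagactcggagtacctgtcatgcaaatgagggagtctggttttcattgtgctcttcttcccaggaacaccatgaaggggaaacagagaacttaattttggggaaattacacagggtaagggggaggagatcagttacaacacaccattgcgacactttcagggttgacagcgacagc

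TATAAA was found in the stretches of Il1a and Il1b, with its first base 32 and 31 bases before the start, and in 12.4% of all 32851 promoter stretches of the same length. TGANTCA was found in Il1a, 12 bases before the start, and before the upstream start of Il1rn, 141 bases away from it, against 6.75% of all stretches. The NF-kB consensus, searched as a single strict pattern and found in 3.90% of all stretches, had no match in these. Looser NF-kB sites, and sites outside these stretches, were not searched. CpG dinucleotides numbered 3 in Il1a, 2 in Il1b, 1 before the upstream start of Il1rn and 4 before its downstream start, against a median of 6 over all stretches. Of all stretches, 37.8% had as few CpG as Il1a, 29.0% as few as Il1b, 18.8% as few as the upstream and 44.4% as few as the downstream start of Il1rn, so low numbers of this kind are common among promoters.

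Peaks were tied to genes by window and by order along the chromosome alone. In RefSeq the order is Ckap2l, Il1a, Il1b, with the noncoding Gm14023 overlapping Il1a and the noncoding Il1bos overlapping Il1b. A peak has no strand, so a gene and an overlapping transcript cannot be told apart. The lowest region of the window, chr2:129120949-129124005, is called the region beside Il1a. The next, chr2:129130831-129137390, is called the Il1a region, and the highest, chr2:129192828-129196942, the Il1b region. In the Il1rn window, chr2:24192029-24194976 is called the upstream and chr2:24200568-24205411 the downstream Il1rn region. The sixth region, chr2:129186091-129186436, is a weak peak below Il1b.

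In both genotypes, H3K4me3 peaks at Il1a and Il1b and at the upstream start of Il1rn were called after LPS and not in untreated cells, whereas the downstream start of Il1rn had a peak in all 4 lists and a wider one after LPS. The gained peak was at the ceiling in both genotypes at Il1a. At Il1b and at the upstream start of Il1rn, the Wbp7-/- peak was 0.38 times as wide as the Wbp7+/- peak. The Wbp7-/- peak also scored lower there, though scores of different lists are not on a common scale. Ranked by score among the gained peaks of its own list, it stood lower as well. Of the window peaks of LPS-treated cells, 3 of 5 in Wbp7-/- and 4 of 6 in Wbp7+/- had no untreated peak of the same genotype. Over the whole lists this held for 8.60% of Wbp7-/- and 8.95% of Wbp7+/- LPS peaks. In the other direction, 0 of the 2 untreated window peaks of either genotype lacked an LPS peak, against 6.48% of all untreated Wbp7-/- and 7.47% of all untreated Wbp7+/- peaks. In bulk chromatin, more cells with the mark and more of the mark per cell cannot be told apart.

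**Figure D1:**
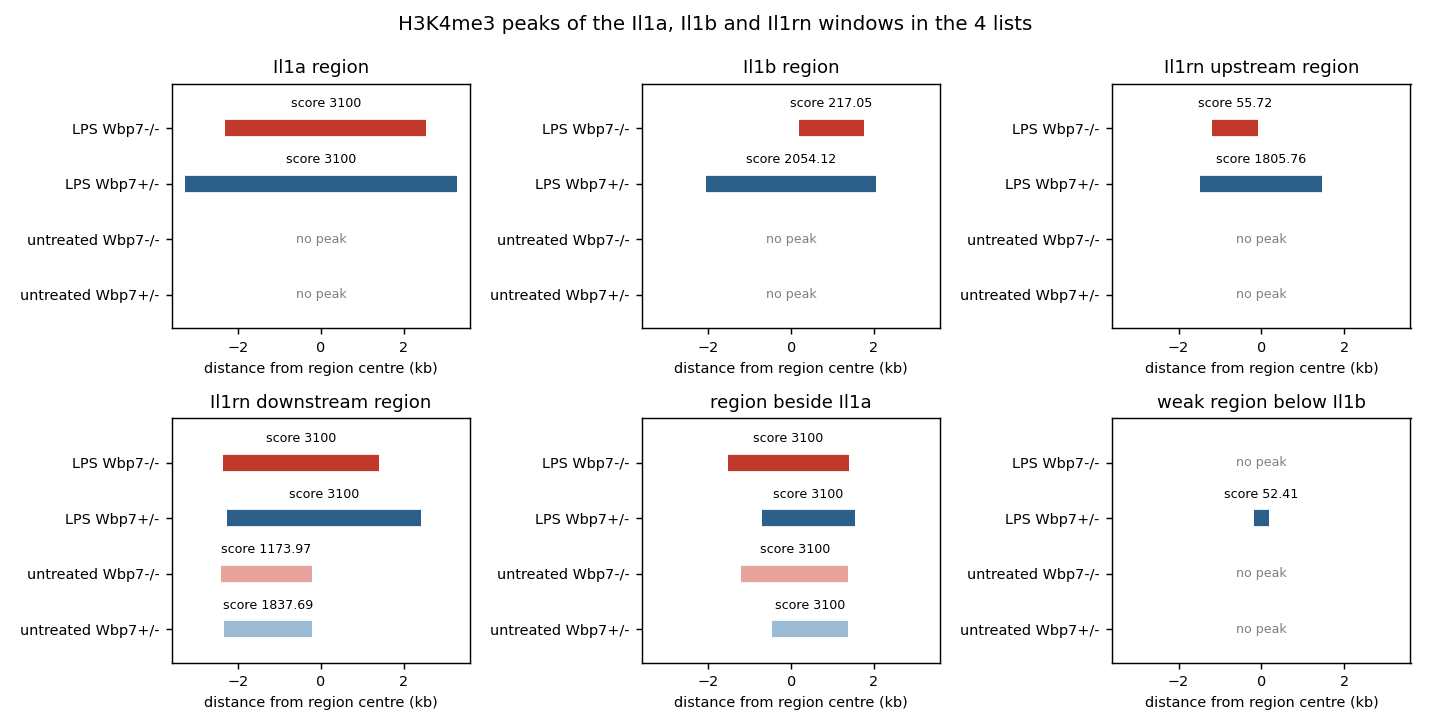
Extent of every H3K4me3 peak in the windows, with the distance from the centre of the joined region in kb on the x axis, 1 row per list and the peak score above each bar. The Il1a, Il1b and upstream Il1rn regions have bars in the LPS rows alone, and the bars of Wbp7-/- cells are shorter, 1572 against 4115 bp at Il1b.

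Il1a, which encodes IL-1 alpha, had the strongest gain. Its peak measured 4854 bp in LPS-treated Wbp7-/- cells and 6560 bp in LPS-treated Wbp7+/- cells, and neither untreated list had a peak there. Both LPS peaks were at the ceiling. By width it was peak 4 of the 1297 gained by Wbp7-/- cells and peak 3 of the 1550 gained by Wbp7+/- cells, whose medians were 803 and 684 bp. Among all LPS peaks, 95.2% of those of Wbp7-/- cells and 98.7% of those of Wbp7+/- cells were narrower. The Il1a region was thus among the broadest H3K4me3 domains of these cells in either genotype, without a called peak before LPS.

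Il1b, which encodes IL-1 beta, gained a peak of 1572 bp in LPS-treated Wbp7-/- cells and of 4115 bp in LPS-treated Wbp7+/- cells. Its score was 217.05 in Wbp7-/- and 2054.12 in Wbp7+/- cells, and again neither untreated list had a peak. In Wbp7-/- cells it stood at place 150 of 1297 gained peaks by width, and 236 of these scored higher. In Wbp7+/- cells it stood at place 8 of 1550 by width, and 28 scored higher. The gains of Il1a and Il1b lay 55437 bp apart. Among the 329 regions with a peak in both LPS lists and no untreated list, 32.8% had another such region at least as close, and the median distance was 632.7 kb.

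Between the gains of Il1a and Il1b lay the weak peak, 346 bp wide with a score of 52.41 in LPS-treated Wbp7+/- cells and absent from the other lists. It was the only window peak of a Wbp7+/- list with no Wbp7-/- counterpart, 1 of 6 after LPS and 0 of 2 untreated, against 19.7% of all Wbp7+/- peaks under either condition. Of LPS-treated Wbp7+/- peaks scoring under 100, 64.0% had none. In the other direction, 0 of 5 LPS and 0 of 2 untreated Wbp7-/- window peaks lacked a Wbp7+/- peak, against 8.00% and 6.93% of all Wbp7-/- peaks. At scores of 100 or above, or with lists of equal length, the weak peak and the Wbp7-/- peak at upstream Il1rn both dropped out. The Wbp7+/- peak without a Wbp7-/- counterpart was then that of upstream Il1rn, 2948 bp wide with a score of 1805.76.

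**Figure D2:**
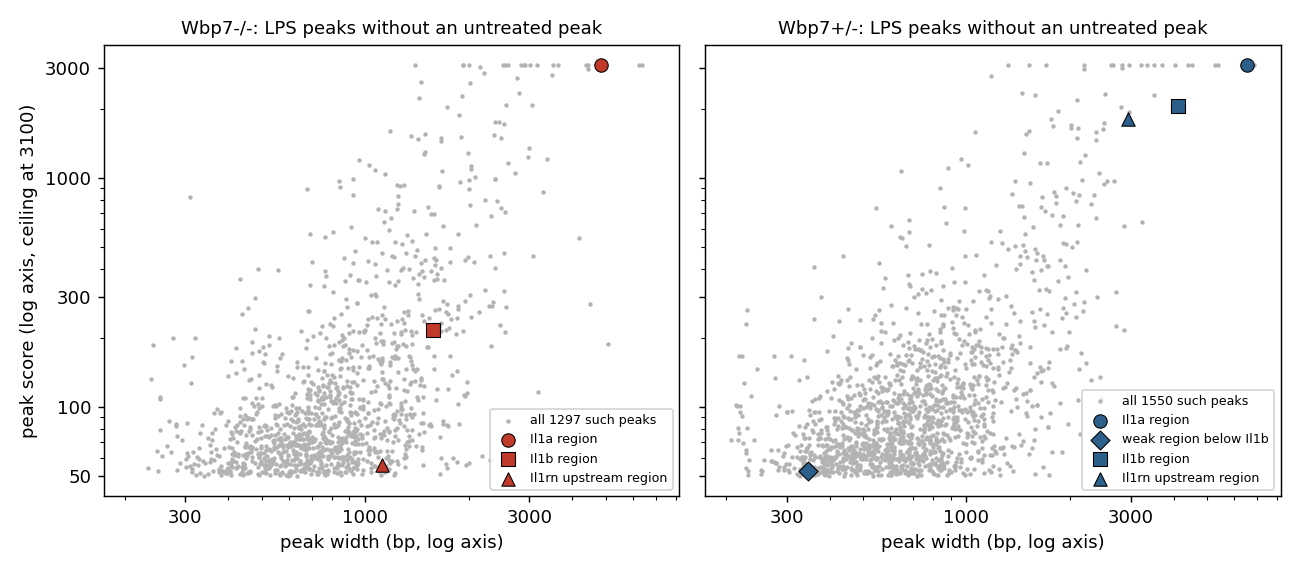
Width in bp against score, both on log axes, of every LPS peak without an untreated peak in Wbp7-/- cells (left, 1297 peaks) and Wbp7+/- cells (right, 1550 peaks), with the window peaks as large symbols. Il1a sits at the ceiling of 3100 in both panels, whereas the upstream Il1rn peak lies at a score of 55.72 in Wbp7-/- and of 1805.76 in Wbp7+/- cells.

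Il1rn, the antagonist gene, behaved differently at its starts. The upstream region had a peak of 1123 bp in LPS-treated Wbp7-/- cells and of 2948 bp in LPS-treated Wbp7+/- cells, and none untreated. Its score was 55.72 in Wbp7-/- cells, close to the lowest score of that list, 50.01, and 1805.76 in Wbp7+/- cells. Of the 329 shared gains, 302 scored higher than this one in Wbp7-/- cells and 29 in Wbp7+/- cells. The peak of Wbp7-/- cells was thus barely called.

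The downstream Il1rn region had a peak in every list. Widths were 3766 bp in LPS-treated Wbp7-/- cells and 2197 bp in untreated Wbp7-/- cells, a ratio of 1.71, and 4705 bp in LPS-treated Wbp7+/- cells and 2112 bp in untreated Wbp7+/- cells, a ratio of 2.23. The score reached the ceiling in either LPS list, and below it without treatment, at 1173.97 in Wbp7-/- and 1837.69 in Wbp7+/- cells. Of the 2 window regions with peaks in all lists, this 1 widened at least 1.5-fold in each genotype, a change seen in 3.44% of 12471 paired peaks of Wbp7-/- cells and 4.13% of 14249 of Wbp7+/- cells. The IL-1 antagonist gene thus had a called peak before LPS, where Il1a and Il1b had none. A ratio as large as its own was seen in 2.12% of pairs in Wbp7-/- and 0.793% in Wbp7+/- cells.

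The widening was on the downstream side. After LPS the high-coordinate edge, which faces the gene body of this plus-strand gene, lay 1614 bp further out in Wbp7-/- and 2645 bp further out in Wbp7+/- cells, and the other edge moved inward by 45 and 52 bp. Edges moved outward by at least as much in 1.02% of all pairs in Wbp7-/- and 0.246% in Wbp7+/- cells. LPS thus left the upstream border of the peak nearly in place in both genotypes.

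The region beside Il1a had a peak at the ceiling in all 4 lists. It measured 2925 bp in LPS-treated Wbp7-/- cells, 2235 bp in LPS-treated Wbp7+/- cells, 2594 bp in untreated Wbp7-/- cells and 1839 bp in untreated Wbp7+/- cells. After LPS it was 1.13 times as wide in Wbp7-/- and 1.22 times as wide in Wbp7+/- cells. Ckap2l, a gene of the mitotic spindle, is the next protein-coding gene on this side of Il1a in RefSeq, and the region is tied to it by no more than that order. The joined region ends 6825 bp below the Il1a region, and untreated cells of both genotypes had a peak in it and none at Il1a.

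**Figure D3:**
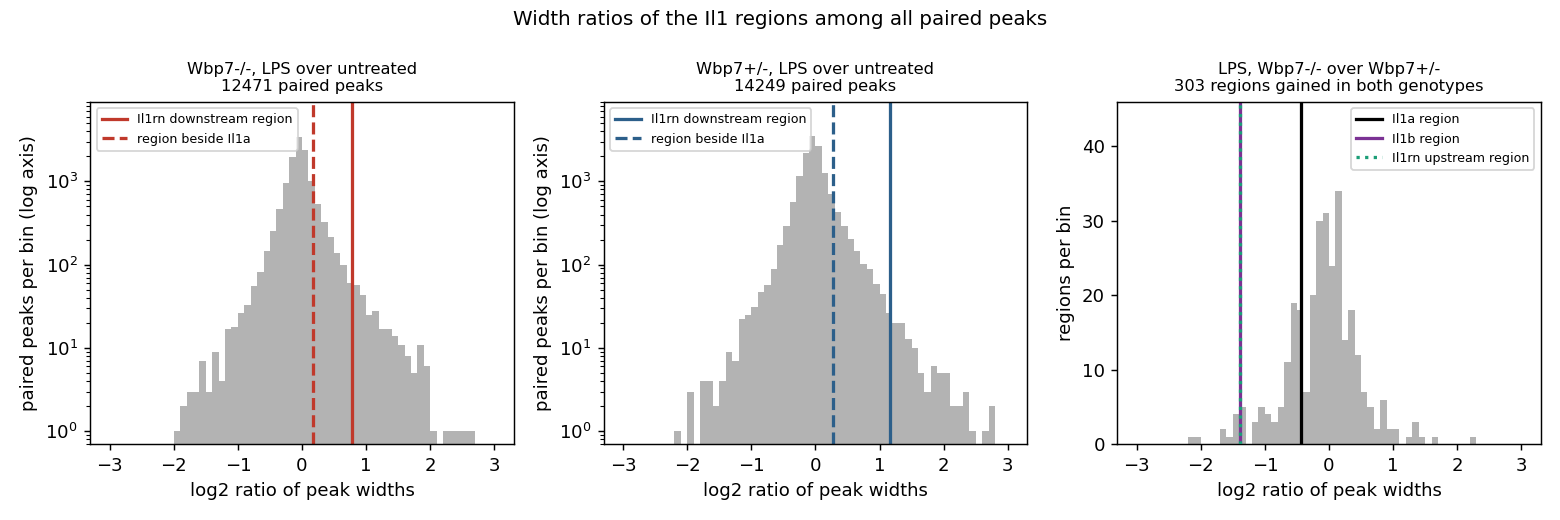
Histograms of the log2 ratio of peak widths for LPS over untreated in Wbp7-/- cells (left) and Wbp7+/- cells (middle), over peaks that pair 1-to-1, and for Wbp7-/- over Wbp7+/- after LPS at 303 regions gained in both genotypes (right). Vertical lines mark the window regions, and the downstream Il1rn region lies in the right tail of the first 2 panels at ratios of 1.71 and 2.23, while the lines of Il1b and upstream Il1rn coincide at a ratio of 0.38.

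After LPS, the Wbp7-/- peak was the narrower one at every region of the 3 genes. The ratio of Wbp7-/- to Wbp7+/- width was 0.74 at Il1a, 0.38 at Il1b, 0.38 at the upstream and 0.80 at the downstream Il1rn region. The region beside Il1a went the other way, with a ratio of 1.31 after LPS and 1.41 untreated. A ratio of 1/1.5 or less was met by 2 of the 5 window pairs after LPS, against 5.34% of 12353 pairs in all, and by 0 of 2 untreated, against 4.22%. Over all pairs the median ratio was 1.035 both after LPS and untreated, and 38.9% of LPS pairs were narrower in Wbp7-/- cells.

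Regions gained with LPS in both genotypes are the closer background for Il1a, Il1b and upstream Il1rn. Of the 329, 303 had a single peak in each LPS list, with a median ratio of 0.973, and 15.8% were at 1/1.5 or less, as were 2 of the 3 IL-1 gains. The 0.382 of Il1b was reached or passed by 11 of the 303 and the 0.381 of upstream Il1rn by 10, whereas 25.1% had a ratio as low as that of Il1a. Broad gains were narrower in Wbp7-/- cells more often than not. Among the 27 gains whose wider peak measured 2.5 kb or more, a limit chosen after the data were seen, the median was 0.855, 20 were narrower in Wbp7-/- cells, 29.6% were at 1/1.5 or less, and 4 were at or under 0.382. The lower width went with a lower score at Il1b and upstream Il1rn. If the 24 h named for the LPS-treated Wbp7+/- library is right, LPS time and genotype cannot be told apart here.

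The difference between the genotypes after LPS was larger at the edge that faces the gene body in 4 of 4 regions of these genes, a pattern noticed after the values were seen. The downstream edge of the Wbp7-/- peak fell short of that of the Wbp7+/- peak by 964 bp at Il1a, 2242 bp at Il1b, 1553 bp at upstream Il1rn and 1033 bp at downstream Il1rn. At the upstream edge the peaks differed by 742, 301, 272 and 94 bp in the same order. Directions of genes are those of RefSeq on GRCm38.p6, and no figure over all genes is given, since gene directions were not available for the mm9 regions. In untreated cells the peak of downstream Il1rn differed by 87 bp at its upstream and 2 bp at its downstream edge between the genotypes. The region beside Il1a was not counted above. Between the genotypes, its low-coordinate edge differed by 822 bp and its high-coordinate edge by 132 bp after LPS, with the Wbp7-/- peak wider. Without treatment, these edges differed by 753 and 2 bp. Ckap2l is on the minus strand in RefSeq, so the larger difference would also face its gene body if the region belongs to it. Uneven edges were thus not particular to Il1a, Il1b and Il1rn, to LPS or to narrower Wbp7-/- peaks.

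Summed over the peaks of the Il1a and Il1b window, H3K4me3 covered 9351 bp in LPS-treated Wbp7-/- cells, 13256 bp in LPS-treated Wbp7+/- cells, 2594 bp in untreated Wbp7-/- cells and 1839 bp in untreated Wbp7+/- cells. In the Il1rn window it covered 4889 and 7653 bp after LPS in Wbp7-/- and Wbp7+/- cells, and 2197 and 2112 bp in the untreated cells of these genotypes. Outside the windows, the nearest region above Il1rn, 12463 bp from its window at chr2:24222463-24224274, had a peak in every list, of 1597 bp in LPS-treated Wbp7-/-, 1193 bp in LPS-treated Wbp7+/-, 1812 bp in untreated Wbp7-/- and 1308 bp in untreated Wbp7+/- cells. Its scores were 332.4, 566.05, 632.9 and 853.81 in the same order. It was narrower and scored lower after LPS in both genotypes, and in Wbp7-/- cells it was wider but scored lower under both conditions. The nearest region below Il1a lay 92107 bp from the window and was at the ceiling in all 4 lists. The nearest above Il1b lay 134142 bp away, scored at most 300.33, and had a peak in every list but that of LPS-treated Wbp7+/- cells. The nearest below Il1rn, 34252 bp away, was a peak of 366 bp in LPS-treated Wbp7-/- cells alone. Of these 4 neighbours, none had peaks in both LPS lists and in no untreated list. That pattern held for only 329 of all 18786 regions, so most regions lack it.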

How the data were processed

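Each of the 4 ChIP-seq libraries, made from chromatin fixed with 1% formaldehyde for 10 min, has 1 deposited peak list. Per the submitters' processing notes, reads were aligned to mm9 with Bowtie. Per the file headers, MACS called the peaks against input. Versions, thresholds and read numbers are not stated in the sources used here. The deposited score of a peak is the caller's own, and start and end are other deposited columns in bp. A score of exactly 3100 probably marks a p-value stored as 0, so such peaks cannot be ordered by score.

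Peaks were assigned to windows, matched between lists and joined into regions by an overlap of at least 1 bp, in Python 3.11.15 with pandas 2.3.3, numpy 2.4.6 and matplotlib 3.10.9. Width ratios were taken over peaks that overlap 1-to-1. The matching code was checked on an altered copy of 1 list, which does not measure how well peaks of different libraries match. Groups came from sample titles. With 1 library per group, nothing was tested between groups. Every region overlapping a window is named. The genes, windows and backgrounds were chosen with earlier results of these data known. IL-1 receptor and signalling genes and cell type markers were planned but not run, for want of an mm9 annotation. Promoter sequences were matched by symbol for 3 of 3 genes.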

Additional observations from a re-analysis of the deposited data

Results flagged for a closer look

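The downstream Il1rn region was picked out because its genotype difference had opposite signs with and without LPS. The Wbp7-/- peak minus the Wbp7+/- peak was -939 bp after LPS (3766 against 4705 bp) and 85 bp untreated (2197 against 2112 bp). The difference was not tested, since each group had 1 library. The untreated difference is under the median absolute width difference between the genotypes of all paired untreated peaks, 191 bp, and the LPS difference is above that of all paired LPS peaks, 215 bp.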

How the results depend on the processing

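Of 77 alternative values, 56 equalled the reported one and 74 stayed within 1.5 times of it. These counts include the setting that kept only peaks wholly inside a window. That setting could not change a value, since every window peak lay wholly inside. Values within 1.5 times also include losses. In Wbp7-/- cells, LPS peaks without an untreated peak fell from 3 to 2 at scores of 100 or above, and likewise with lists of equal length. The Il1rn window held 1 peak in place of 2 in LPS-treated Wbp7-/- cells when peaks had to score 100 or above, and likewise 1 with lists of equal length, because the upstream peak scores 55.72. LPS-treated Wbp7+/- peaks without a Wbp7-/- peak numbered 3 in place of 1 when 50% of the peak had to be covered, which follows from the narrower Wbp7-/- peaks. Regions with a peak in an LPS list and in no untreated list numbered 4, and 3 without the LPS-treated Wbp7+/- library of uncertain LPS time, an alternative chosen after the data were seen. No paired analysis was possible because each group had 1 library and the labels give no replicate numbers. Unknown depth limits every absent peak, and above all the peaks close to the caller's lowest score of 50. It also limits comparisons of width between lists.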
